A study of Arabidopsis thaliana with 6 samples.

Results

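Of the 9712 ENAP1 ChIP peaks called in air, 2692 (27.7%) overlapped no ENAP1 ChIP peak called in ethylene by 1 bp or more, and these air-only peaks are described here. They were mostly low peaks. Their highest fold enrichment was 5.11, whereas the 7020 air peaks that were shared with ethylene reached 16.5-fold. None of the 1856 air peaks with −log10 q of 20 or higher was among them, which allows a share of up to 0.199%. Their summits lay inside gene edges less often, and outside genes more often, than those of shared air peaks weighted to like fold. With −log10 q of at least 5, the intervals of the outside shares overlapped. Intervals of both shares also overlapped under 1.5-fold and at 4-fold or higher, and edge intervals at 1.5- to under 2-fold. Fewer air-only peaks met a reChIP peak gained in ethylene, but the rule left out sites with an ethylene ENAP1 peak, which favours this. By gene list, air-only peaks lay at 8 of 19 immunity genes and at 20 of 72 WRKY genes, against 11.2% of all protein-coding genes. These had the highest shares of 27 lists and families, of which 14 lay above all genes and 13 below. WRKY genes also stood above all genes in shared air peaks (45.8% against 31.0%) and in ethylene peaks (48.6% against 36.4%).

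Ethylene is a gaseous hormone that seedlings grown in the dark answer with a short, thick hypocotyl and an exaggerated apical hook. EIN2, a membrane protein of the endoplasmic reticulum, is cleaved when ethylene is perceived, and its C-terminal part moves to the nucleus, where it meets ENAP1. ENAP1 (EIN2 NUCLEAR ASSOCIATED PROTEIN) associates with chromatin and is known for its part in the histone H3 acetylation that accompanies the ethylene response. In ChIP, chromatin is fragmented and precipitated with an antibody, and the regions where the precipitated DNA exceeds a control library are called as peaks. In the reChIP, the ENAP1 chromatin is precipitated again with an antibody against EIN2.

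The series held 6 samples of whole Arabidopsis thaliana Col-0 seedlings, 3 days old, raised in the dark at 24 °C and exposed over the last 4 hours to hydrocarbon-free air without or with 10 ppm ethylene. Each treatment had 1 library of ENAP1 ChIP, 1 of ENAP1-EIN2 reChIP and 1 of input. The antibody used to pull down ENAP1 was directed against green fluorescent protein in either treatment; the labels name neither a tagged line nor its promoter, and no control precipitation was among the samples. Titles and descriptions, which disagree with the treatment entry (air) of the ethylene samples, were followed. As each group was a single library, differences between lists carry no replicate check and no p-value is given. In whole seedlings, binding in few cells and weak binding in many cells cannot be told apart.

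The libraries kept 8400099 tags for ENAP1 ChIP in air and 8811720 in ethylene after removal of duplicates. The air peaks were called against a control of 7160364 tags and the ethylene peaks against one of 4809861 tags. The larger library was scaled to the smaller one, so ENAP1 ChIP pileups are given in scaled tags throughout. Peaks of the same fold had a lower scaled pileup in ethylene, which is not a lower count of ChIP tags. For a fold of 2 to under 2.5 the median scaled pileup was 29.8 tags in air and 23.5 in ethylene, and the median −log10 q was 3.02 and 2.13. An air peak without an ethylene peak is therefore a site where none was called in the ethylene list, and the ethylene signal at the site was not measured here. How far the difference in control depth takes part in the air-only class was not tested.

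The air-only peaks were chosen by the peak calls of the air and ethylene lists, so their heights, widths and significance are given as a description only. Air-only peaks had a median fold of 2.28 (quartiles 2.02 and 2.57), a median pileup of 29.0 tags and a median −log10 q of 2.85. For shared air peaks the medians were 3.02-fold, 58.0 tags and 10.13. Their median width was 206 bp, against 297 bp. The share of air peaks that had no ethylene peak was 51.7% (95% interval 48.8 to 54.5) at 1.5- to under 2-fold and 29.4% (27.4 to 31.4) at 2.5- to under 3-fold. It was 10.2% (8.88 to 11.7) at 3- to under 4-fold. Only 9 of the 1913 air peaks of 4-fold or higher were air-only, 0.470% (0.215 to 0.891). All intervals here are exact binomial ones at 95% and hold counting error alone. The split by chromosome was even, from 26.3% of the air peaks on chromosome 5 to 29.2% on chromosome 4.

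**Figure D1:**
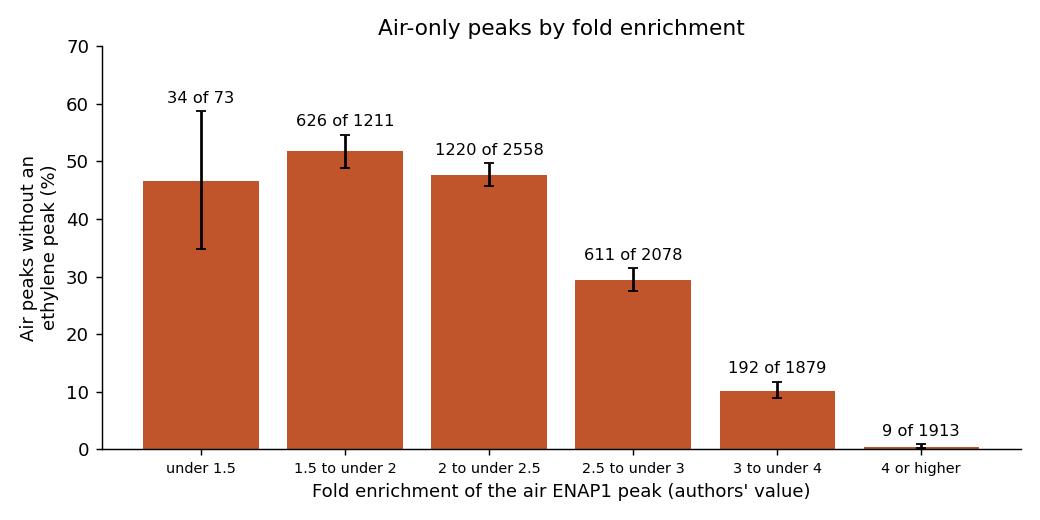
Share of air ENAP1 ChIP peaks (%) that overlapped no ethylene peak, by class of the authors' fold enrichment; bars are shares, whiskers exact binomial 95% intervals, and the numbers above them are counts. The share lies near 50% below 2.5-fold (34 of 73, 626 of 1211 and 1220 of 2558) and falls to 9 of 1913 at 4-fold or higher.

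The nearest ethylene peak lay at a median distance of 3159 bp, and 2023 air-only peaks (75.1%) were over 1000 bp from it. Another 147 air-only peaks (5.46%) lay within 200 bp. Ethylene peaks without an air peak lay at a like median distance of 2764 bp from the nearest air peak. The distance of sites placed at random was not computed. At the border of the rule, 3 air-only peaks were at most 10 bp from an ethylene peak, at AT3G57450, AT3G62630 and AT1G52590, with folds of 2.14, 2.15 and 2.30. The 5 shared air peaks with an overlap of at most 10 bp had folds from 1.87 to 2.21, so the border cut through peaks of about the same height. A −log10 q of at least 5 was reached by 523 air-only peaks, of which 410 were also over 1000 bp from an ethylene peak. A further 289 had q above 0.05.

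**Figure D2:**
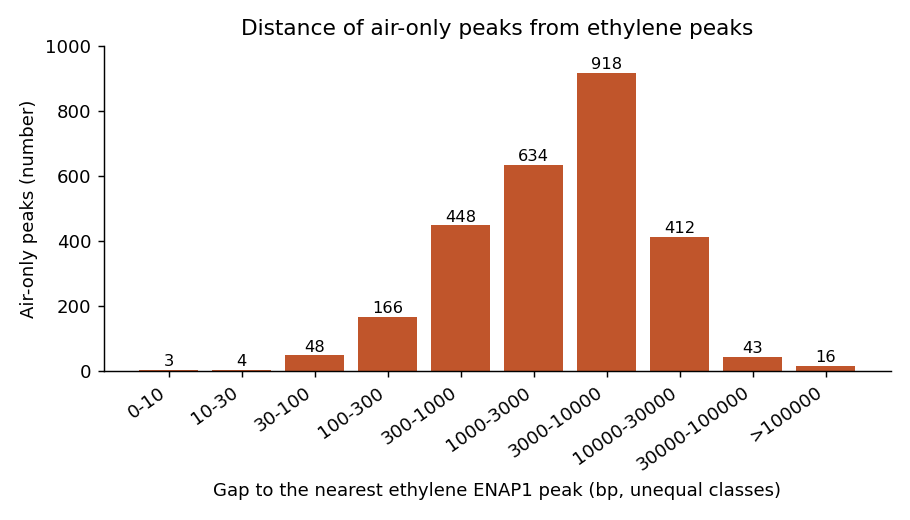
Number of air-only peaks by distance from the nearest ethylene ENAP1 ChIP peak, in classes of unequal width (bp). The class of 3000 to 10000 bp holds 918 peaks, while the 3 classes up to 100 bp hold 3, 4 and 48.

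The highest air-only peak (chr1:8471192-8471456, TAIR10) lay inside AT1G23950, 92 bp from the gene edge, with 5.11-fold enrichment, a pileup of 52.9 tags and −log10 q of 19.1. The ethylene list had no peak within 12198 bp of it. It was followed by a 4.86-fold peak inside AT4G34960 (chr4:16648493-16648789; −log10 q 17.7) and a 4.60-fold peak 609 bp outside AT1G74460 (chr1:27990344-27990723; −log10 q 15.5). The nearest ethylene peaks to these were 16807 and 7491 bp away. None of these genes had an ethylene peak inside it or within 1000 bp.

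The next peaks stood at genes with known products. A 4.30-fold peak lay 955 bp outside WRKY38 (chr5:7497739-7498042), which encodes a WRKY transcription factor that dampens basal defence. It overlapped an air reChIP peak of 4.37-fold that rested on 6 tags. A 4.22-fold peak lay inside CSLA11 (chr5:5284921-5285120), of the cellulose synthase-like family that makes mannan backbones of the cell wall. UMAMIT2, of a family of amino acid transporters, had a 4.11-fold peak with 64.8 tags. The sterol synthesis gene 3BETAHSD/D1 had a 4.01-fold peak. SWEET17, a fructose transporter of the vacuolar membrane, had a 3.97-fold peak that overlapped an ethylene reChIP peak of 2.92-fold on 3 tags. CLE20, a gene for a small signalling peptide, had a 3.95-fold peak only 296 bp from an ethylene peak of 2.89-fold. It was the only gene among the 15 highest with an ethylene peak inside it or within 1000 bp.

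The rest of the 15 highest lay at AT5G51390 (4.14-fold), AT4G33905 (4.03-fold), AT1G21090 (3.97-fold), AT2G07981 (3.94-fold), AT5G27430 (3.92-fold) and AT3G26130 (3.88-fold). The peak in AT2G07981 also overlapped an air reChIP peak of 6.38-fold on 14 tags, with −log10 q of 6.86. Of the 15, 12 had their summit inside a protein-coding gene, against 61.5% of all air-only and 76.5% of shared air summits.

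The control level under the peaks, derived from pileup and fold, was at the lowest value of the air list for 40.0% (38.2 to 41.9) of the air-only peaks and for 19.1% (18.15 to 20) of the shared ones. That value, 9.55 tags, is what the control tags would give if spread evenly over the genome. Of the 523 air-only peaks with −log10 q of at least 5, 96 stood within 1% of that level, among them the peaks at AT1G23950, AT4G34960, WRKY38 and CSLA11. The peaks at the highest control level, with the same limit on q, lay at AT3G11150 (2.09-fold on 130 tags), the protein kinase gene SR1 (1.88-fold on 108 tags), AT3G60780 (1.85-fold), the lipase gene PLA-I{gamma}1 (1.84-fold) and the polyol transporter gene PMT6 (2.20-fold on 124 tags). Their control levels were 4.00 to 4.43 times the list median, and their −log10 q values ran from 6.25 to 12.4.

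Air-only summits were placed differently from shared ones. The position of a summit was not used by the rule. In the first 200 bp inside either edge of a protein-coding gene lay 27.2% (25.5 to 28.9) of the air-only summits and 45.7% (44.5 to 46.8) of the shared air summits. Outside protein-coding genes lay 38.5% (36.6 to 40.3) against 23.5% (22.5 to 24.5). Over 1000 bp from any protein-coding gene lay 11.6% (10.4 to 12.9) against 5.44% (4.92 to 5.998). When the shared peaks were weighted to the fold classes of the air-only peaks, their shares were 38.1% inside the edge, 23.2% outside genes and 5.53% far from genes, so the gap at gene edges narrowed but did not close. By fold class, the intervals inside the edge overlapped under 2-fold and at 4-fold or higher. Those outside genes overlapped under 1.5-fold and at 4-fold or higher. Among peaks with −log10 q of at least 5, the shares inside the edge were 35.2% (31.1 to 39.4) and 49.5% (48.1 to 50.9). With the same limit the shares outside genes were 23.7% (20.1 to 27.6) and 19.5% (18.4 to 20.6), with overlapping intervals. The shares far from genes were then 6.88% (4.87 to 9.40) and 4.07% (3.55 to 4.64).

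Deep inside genes, over 200 bp from an edge, lay 34.4% (32.6 to 36.2) of the air-only summits and 30.8% (29.7 to 31.9) of the shared ones. The order of these shares depended on the peaks compared: the weighted shared share was 38.7%, above the air-only one, while at −log10 q of at least 5 the shares were 41.1% (36.9 to 45.5) for air-only and 31.0% (29.8 to 32.3) for shared peaks. The genes that held a summit had like lengths, with medians of 2462 bp for air-only and 2495 bp for shared peaks. Ethylene peaks without an air peak, 1812 in number, also had low shares inside the edge (31.5%, 29.3 to 33.7) and high shares outside genes (45.2%, 42.9 to 47.5). The lower share at edges was thus found in the peaks without a partner of either treatment. Since strand was not used here, an edge may be the start or the end of a gene.

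**Figure D3:**
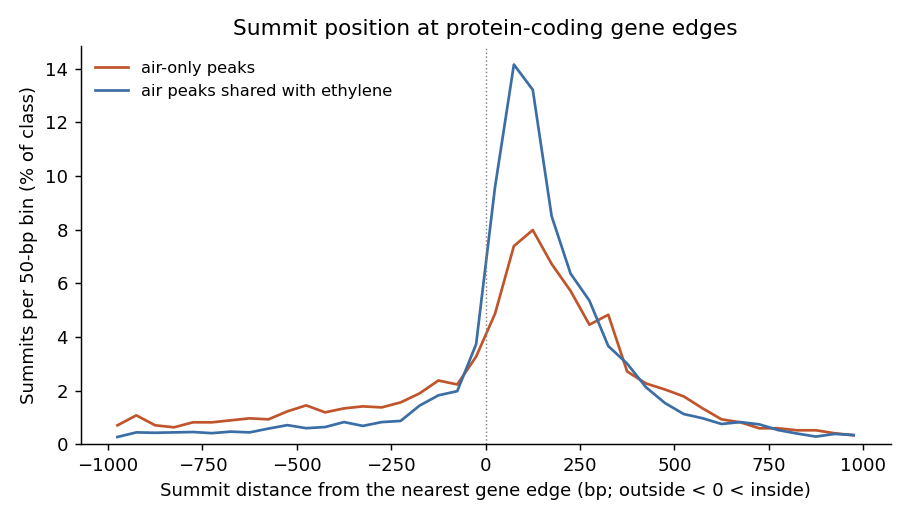
Percent of summits per 50-bp bin against the distance (bp) from the nearest protein-coding gene edge, negative outside and positive inside the gene, for air-only peaks and for air peaks shared with ethylene. Both lines peak just inside the edge, the air-only peaks at 7.99% and the shared peaks at 14.2% of summits per bin. Outside genes the air-only line lies above the other, except in the bin next to the edge (3.27% against 3.73%).

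Other annotated genes held few air-only summits. Long noncoding RNA genes held 77 of them (2.86%, 2.26 to 3.56; shared 3.70%, 3.27 to 4.17), and genes classed as pseudogenes 12 (0.446%, 0.231 to 0.777; shared 0.256%, 0.152 to 0.405). Megabases with fewer than 100 protein-coding genes held 1.86% (1.38 to 2.44) of the air-only and 1.27% (1.02 to 1.56) of the shared peaks. The intervals of air-only and shared peaks overlapped in each of these pairs. The highest air-only peaks with no protein-coding gene within 1000 bp were a 3.73-fold peak on chromosome 5 (chr5:11733160-11733368) and a 3.65-fold peak on chromosome 4 (chr4:11111632-11111802). They were followed by 3.57-fold (chr2:7835830-7836075), 3.43-fold (chr3:16275486-16275727) and 3.37-fold peaks (chr4:4005897-4006120). The last of these overlapped an air reChIP peak of 5.03-fold on 9 tags. The genes nearest to the middle 3, at 1134 to 3443 bp, were AT4G20720, the ribosomal protein gene EMB2296 and ADT4, which acts in phenylalanine synthesis. The first and the last of these peaks lay 96590 and 64536 bp from any protein-coding gene. Their nearest ethylene peaks were 346157 and 189416 bp away.

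The reChIP lists came from other libraries than those of the rule, but the air reChIP was called against the same control as the air ChIP. The ethylene reChIP was called against the air reChIP, so its peaks mark a gain over air and not EIN2 presence. Air reChIP peaks overlapped 154 air-only peaks (5.72%, 4.87 to 6.67) and 864 shared air peaks (12.3%, 11.5 to 13.1). Most of these overlaps were with reChIP peaks of q above 0.05: with q of 0.05 or lower the shares were 1.60% (1.16 to 2.15) and 4.37% (3.91 to 4.88). Weighted to the fold classes of the air-only peaks, the shared share was 6.20%, which lies inside the interval of the air-only peaks. In the classes from 1.5- to under 2.5-fold the shares were 5.43% and 4.92% for air-only and 3.93% and 5.23% for shared peaks, with overlapping intervals.

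With the ethylene reChIP list the shares stood apart at like air fold. This reChIP starts from ENAP1 chromatin of ethylene seedlings, and the rule left out air peaks that overlap an ethylene ENAP1 peak. The gap therefore cannot be told apart from the choice of peaks, and matching on air fold does not remove this. Its peaks overlapped 231 air-only peaks (8.58%, 7.55 to 9.70) and 1546 shared ones (22.0%, 21.1 to 23.0), and the weighted shared share was 18.4%. With reChIP peaks of q of 0.05 or lower the shares were 5.87% (5.01 to 6.82) and 17.7% (16.8 to 18.6). At 2- to under 2.5-fold the shares were 6.72% (5.38 to 8.28) and 16.6% (14.6 to 18.7), and at 3- to under 4-fold 5.21% (2.53 to 9.37) and 20.3% (18.4 to 22.3). Under 1.5-fold and at 4-fold or higher the intervals overlapped, with 34 and 9 air-only peaks. Both reChIP lists were overlapped by 3 air-only peaks, among them the peaks in EIN2, and by 122 of the 7020 shared ones. Neither list was overlapped by 2310 air-only and 4732 shared peaks. The lists are not independent, as the ethylene reChIP was called against the air reChIP. The overlapping reChIP peaks rested on few tags, with a median pileup of 5 in both lists.

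**Figure D4:**
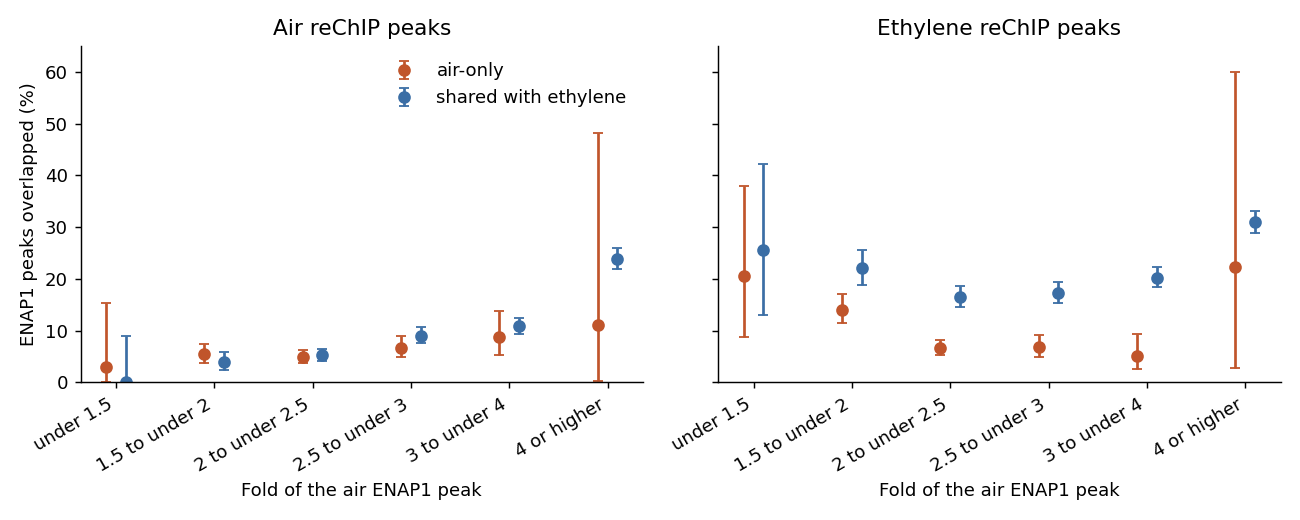
Share of air ENAP1 ChIP peaks (%) that overlapped an air reChIP peak (left) or an ethylene reChIP peak (right), by fold class of the air ENAP1 peak; points are shares and whiskers exact binomial 95% intervals for air-only peaks and for air peaks shared with ethylene. The classes from 1.5- to under 4-fold overlap on the left, while on the right the air-only points lie lower, at 6.72% against 16.6% for 2- to under 2.5-fold.

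EIN2 itself held the air-only peaks with the highest air reChIP fold. Its gene carried 2 low air-only peaks, 1.94-fold (chr5:792757-792988) and 1.89-fold (chr5:791246-791537), under one air reChIP peak of 34.6-fold on 96 tags and one ethylene reChIP peak of 4.69-fold on 272 tags. These 2 peaks lay 346 and 1797 bp from a 5.50-fold ethylene ENAP1 peak, and EIN2 also had a shared air peak of 9.03-fold. After AT2G07981, the next air-only peak by air reChIP fold lay at AT4G22750 (5.81-fold in the reChIP on 9 tags). Its own ENAP1 fold in air was 1.87.

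By ethylene reChIP fold, the first air-only peak lay in AT4G22530, with a reChIP fold of 8.82 on 12 tags and −log10 q of 9.53; its ENAP1 peak in air was 1.85-fold. The next lay at AT5G40470 (6.57-fold in the reChIP), AT1G52550 (6.11-fold), the Arp2/3 complex gene ARPC1A (5.84-fold) and RHL41 (5.84-fold), which encodes the stress-induced zinc finger protein ZAT12. The RHL41 peak was 113 bp from an ethylene ENAP1 peak of 2.07-fold. At the other 4 genes, the nearest ethylene ENAP1 peak lay at least 4001 bp away.

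A gene was counted when a summit lay inside it or within 1000 bp of it. By this measure 3062 of 27444 protein-coding genes (11.2%) had an air-only peak, and 959 of them also had a shared air peak. Of the 3062, 1151 had an ethylene peak elsewhere in the gene or its flanks, and 1911 (6.96% of all genes) had none. Air-only peaks with q of 0.05 or lower lay at 2763 genes (10.1%). For comparison, 38.6% of all genes had an air peak of any kind and 36.4% an ethylene peak. Most genes had a single air-only peak, 237 had 2, 20 had 3 and 3 had 4. The 3 genes were TGA9, a bZIP factor gene, with folds of 1.76 to 3.81 across 4 peaks, AT5G65660 with 1.93 to 2.68, and AT1G40104 with 1.27 to 1.71. Of the TGA9 peaks, 2 lay nearest to AT1G08315. AT1G40104 had neither a shared nor an ethylene peak, and TGA9 and AT5G65660 had both. The AT1G40104 peaks were weak, with −log10 q of at most 1.86, and lay at least 520111 bp from any ethylene peak. The lowest of them, with −log10 q of 0.537, had a control level 6.29 times the list median.

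Among genes of ethylene signalling, 2 of 21 had an air-only peak (9.52%), ERS2 and EIN2. At the receptor gene ERS2 the 2.16-fold air peak (chr1:1154780-1154962) ended 30 bp from an ethylene peak of 2.18-fold, so a peak of the same height lay beside it in ethylene. Each of these genes thus had an ethylene peak nearby. Of 20 ethylene response genes, 3 had an air-only peak, and none of these had an ethylene peak. PIF3, a light signalling factor that EIN3 activates, had a 2.84-fold peak (chr1:3076522-3076757; −log10 q 4.50) that overlapped an air reChIP peak of 3.12-fold. The chitinase gene HCHIB had a 2.78-fold peak and ERF2, an AP2/ERF factor gene, a 2.08-fold peak. Of 15 genes of ethylene synthesis 2 were counted, the ACC synthase genes ACS6 (2.63-fold) and ACS2 (2.35-fold). ACS6 also had an ethylene peak of 3.45-fold, 275 bp away, and ACS2 had none.

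Immunity and salicylic acid genes had the highest share, with 8 of 19 genes (42.1%), whereas 5 of the 19 had an ethylene peak (26.3%). All 8 are named here, beyond the rule of 3 per list, after their values were seen. EFR and FLS2, the receptors for bacterial elongation factor and flagellin, had peaks of 3.09-fold (chr5:6921603-6921970) and 2.22-fold (chr5:18792180-18792740). The salicylic acid genes had peaks of 2.29-fold at NIMIN1, 2.19-fold at PAD4, 2.03-fold at CBP60G and 1.87-fold at EDS5. The ethylene list had no peak at these 6 genes. RBOHD, the oxidase of the defence burst, and the co-receptor gene BAK1 had air-only peaks of 1.96- and 1.72-fold and also ethylene peaks of 2.54- and 3.39-fold. The BAK1 peak lay outside that gene, nearest to AT4G33440, and had q above 0.05. None of the 8 peaks overlapped a reChIP peak. The median of the 8 folds was 2.11, below the median of 2.28 over all genes with an air-only peak.

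WRKY factors, which bind W-box DNA and act largely in defence, had an air-only peak at 20 of 72 genes (27.8%). The family also stood above all genes in the other classes: 33 (45.8%) had a shared air peak, against 31.0% of all genes, and 35 (48.6%) an ethylene peak, against 36.4%. Of the 20, 11 had no ethylene peak. WRKY38 was followed by a 3.37-fold peak counted for WRKY32 (chr4:15054771-15054998), which lay nearest to AT4G30940, and by a 2.63-fold peak in WRKY6 (chr1:23018751-23019049). WRKY32 and WRKY6 had ethylene peaks of 3.14- and 3.76-fold, 506 and 169 bp away. The peaks of 5 of the 20 genes overlapped an ethylene reChIP peak and 1 an air reChIP peak. The median of the highest fold per gene was 2.25.

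Families were matched by symbol, so that genes known under other symbols are not counted (TGA1, TGA3 and TGA4 among the bZIP factors), and the shares are those of the genes matched. Other transcription factor families ranged from 10.4% to 22.2%. NAC factors had 18 of 100 genes, led by NAC095 (3.09-fold), NAC075 (2.92-fold) and NAC041 (2.76-fold). The peak counted for NAC095 lay nearest to AT5G41100. ERF factors had 6 of 27 (22.2%), led by EBP (3.11-fold; −log10 q 10.9), a group VII factor of the low-oxygen response, with ERF38 (2.36-fold) and CRF8 (2.27-fold) next. Of the bZIP genes 10 of 46 were counted (21.7%), led by TGA9 (3.81-fold), BZO2H1 (2.73-fold; −log10 q 7.75) and BZIP61 (2.68-fold). TGA9 and BZIP61 also had ethylene peaks, of 3.76- and 6.14-fold. MYB factors were close to all genes with 13 of 125 (10.4%), led by MYB99 (2.87-fold), MYB51 (2.68-fold) and MYB74 (2.68-fold). Heat shock factors had 4 of 20, with AT-HSFA7B (2.37-fold), HSFA1E (2.36-fold) and HSFA2 (2.30-fold), and each of these peaks lay nearest to another gene. Heat shock and ERF factors, like WRKY factors, also stood above all genes in the other classes. Shared air peaks lay at 40% and 48.15% of them, and ethylene peaks at 60% and 48.15%. NAC, bZIP and MYB factors did not stand above all genes in these classes.

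Auxin genes lay nearer to the share of all genes. Genes with an ARF symbol had 4 of 25 (16.0%): ARF10 (3.51-fold; −log10 q 11.8), ARF19 (2.58-fold), ARF16 (2.52-fold) and ARF4 (2.36-fold), all auxin response factors. ARF10, ARF16 and ARF4 had no ethylene peak. Genes with an IAA symbol had 5 of 32 (15.6%), led by the repressor gene IAA16 (2.90-fold; −log10 q 12.3), ARF19 and AXR3 (2.52-fold), and all 5 also had an ethylene peak and a shared air peak. Genes matched by symbol as small auxin upregulated RNAs had 5 of 80 (6.25%), led by AT4G34790 (3.17-fold), AT3G61900 (2.28-fold) and AT5G01830 (2.24-fold). AT5G01830 carries the symbol SAUR21 in RefSeq and was counted by symbol alone, so its place in this family was not checked.

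Among light and developmental genes, PIF4 was the single one of 15 light signalling genes (6.67%), with a 2.84-fold peak (chr2:17888677-17888842; −log10 q 10.2), a second air-only peak of 2.52-fold and no ethylene peak inside it or within 1000 bp. PIF3, described above with the ethylene response genes, was not in this list; with it 2 of 16 genes (12.5%) would be counted. Floral and meristem regulators had 3 of 13 (23.1%). The MADS gene SEP3 had a 3.41-fold peak (chr1:8596474-8596708), the flowering repressor FLC a 2.52-fold peak and PI a 2.09-fold peak. FLC had an ethylene peak of 1.77-fold elsewhere. The list of abundant housekeeping genes had none of 16, too few genes to tell this from the 11.2% of all genes. Of these 16, 13 (81.2%) had an ethylene peak and 10 a shared air peak. Genes with an RPL or RPS symbol had 3 of 56 (5.36%), RPS28 (3.39-fold), rps15ae (2.47-fold) and RPS15AD (2.30-fold), and 18 (32.1%) had an ethylene peak. The peak counted for RPS15AD lay nearest to HTB11.

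Enzyme, transport and cell wall families lay on both sides of 11.2%. Cytochromes P450 had 25 of 234 (10.7%), led by the brassinosteroid synthesis gene DWF4 (3.09-fold), CYP83B1 of indole glucosinolate synthesis (2.87-fold; −log10 q 11.6) and CYP71B35 (2.84-fold). Neighbouring genes of this family could be counted from one peak, as CYP71B23 and CYP71B3 were. UDP-glycosyltransferases had 7 of 64 (10.9%), led by UGT72E2 (3.03-fold), which acts on lignin precursors, UGT85A7 (2.23-fold) and UGT71B1 (2.18-fold). ABC transporters had 11 of 127 (8.66%), led by ABCC8 (2.84-fold), ABCG34 (2.52-fold) and ABCF1 (2.51-fold). RAB GTPases had 9 of 55 (16.4%), led by RABA1f (2.96-fold), RABB1C (2.92-fold) and RHA1 (2.68-fold). Plant U-box ligases had 6 of 23 (26.1%), led by PUB43 (3.65-fold), PUB9 (2.87-fold) and PUB19 (2.35-fold). The U-box and RAB families also stood above all genes in the other classes. A shared air peak lay at 56.5% of U-box and 47.3% of RAB genes, against 31.0% of all genes. An ethylene peak lay at 65.2% and 54.55%, against 36.4%.

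Cellulose synthase-like genes had 6 of 32 (18.8%), with CSLE1 (2.63-fold) and CSLD6 (2.18-fold) after CSLA11. Wall-loosening genes were few, with EXPB5 (2.44-fold) among 30 expansins (3.33%) and XTH18 (2.36-fold) and XTH24 (2.00-fold) among 33 xyloglucan endotransglucosylases (6.06%). The peak counted for EXPB5 lay nearest to AT3G60580. Receptor-like proteins had 4 of 55 (7.27%), led by RLP7 (2.76-fold), RLP13 and RLP14, of which the last 2 were counted from one 2.68-fold peak. Genes with a CRK symbol had 4 of 45 (8.89%), led by CRK3 (2.92-fold), CRK41 (2.57-fold) and CRK27 (2.37-fold). Over the 27 lists and families, 14 had a share above that of all protein-coding genes and 13 below it.

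**Figure D5:**
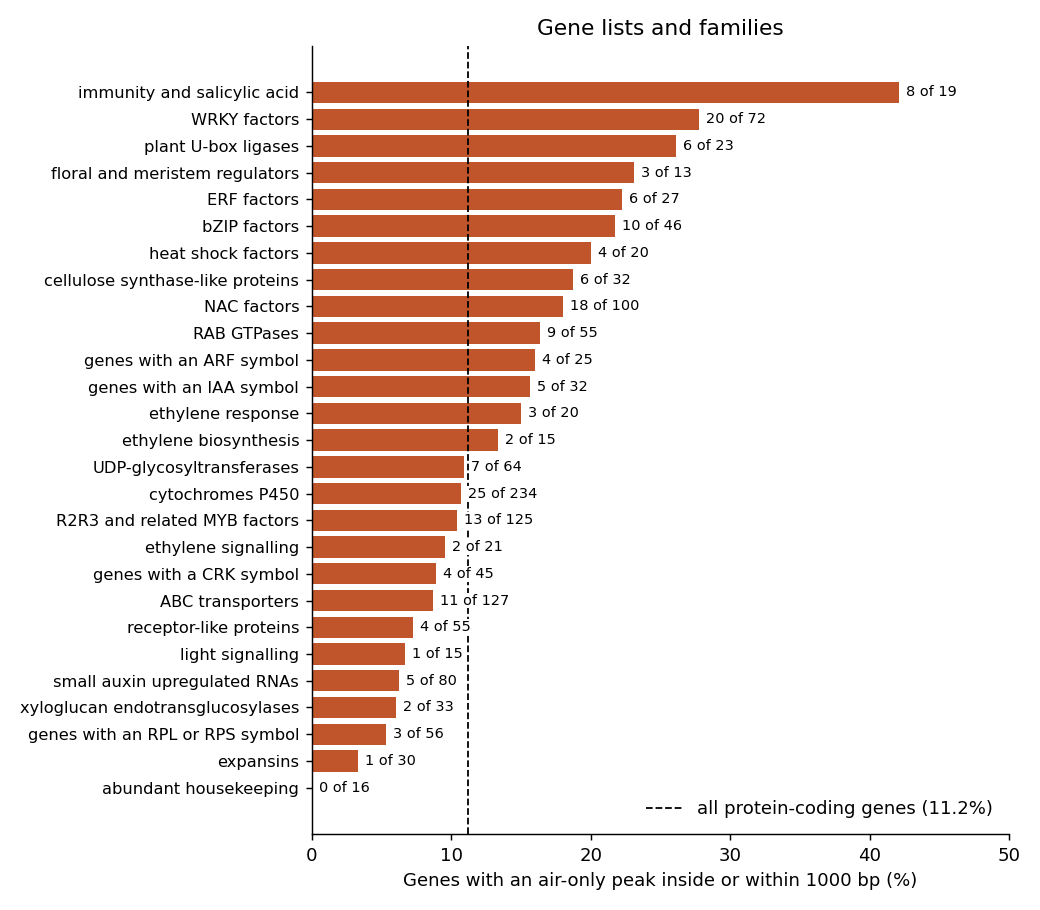
Percent of genes in each list or family with an air-only ENAP1 peak inside the gene or within 1000 bp; the dashed line marks the share of all protein-coding genes (11.2%) and the labels give counts. Immunity and salicylic acid genes (8 of 19), WRKY factors (20 of 72) and plant U-box ligases (6 of 23) lie highest, and the abundant housekeeping genes (0 of 16) lie lowest.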

How the data were processed

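Peak lists of 4 samples were used; the 2 inputs have no peak list here, and the headers give the control libraries only by code. The submitters' processing notes name BWA and the genome build TAIR10. Per the file headers, the authors called peaks with MACS2 2.1.0.20150603 for each library against 1 control, with a p cutoff of 0.01, reads of mapping quality 30 or higher by the file names in the headers, and 1 tag kept per position. The deposited values are the pileup as a signal in tags, the fold enrichment, a ratio to the local background, and the −log10 of the p-value and q-value; the headers announce that q is not calculated, yet the lists hold q values, which were used as they stand. The reChIP libraries kept 644263 (air) and 304818 (ethylene) tags.

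Overlaps, summit positions and counts were computed with Python 3.11.15, pandas 2.3.3 and scipy 1.17.1, and checked on simulated intervals. The control level was (pileup + 1) / fold − 1. Gene positions were read from RefSeq's gene table (TAIR10.1), which was used without strand and from which no coordinates are printed. Unshifted, it placed 40.5% of air summits inside a gene within 200 bp of an edge, and at most 10.5% when shifted by 2000 to 10000 bp. All 119 genes of the 7 lists matched it; 20 families were matched by symbol or synonym, in any case and with or without the prefix A or AT (widened after the counts were seen); they can miss genes under other symbols and hold genes of other families.

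The air-only peaks, lists and fold classes were chosen with earlier results of these data known. Named were the 15 highest peaks, 5 each by highest control level, by each reChIP fold and far from genes, genes with the most air-only peaks (3 with 4 peaks; ties below were not split) and up to 3 genes per list. Peaks of lowest control level were tied and are given as a count. One peak that this rule names is not reported here. Sequences and motifs were not analysed here. Alternatives changed the overlap rule, the q limit and the gene window.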

Additional observations from a re-analysis of the deposited data

How the results depend on the processing

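The share of air peaks without an ethylene peak (27.7%) changed with each alternative: 34.7% with overlap of at least 50% of both peaks, 26.2% with ethylene peaks widened by 200 bp, 29.1% with no ethylene summit within 250 bp, 25.9% for air peaks with q of 0.05 or lower, 9.05% for −log10 q of at least 5, 23.8% with the same number of peaks per list and 31.0% against ethylene peaks with q of 0.05 or lower. With reChIP peaks of q of 0.05 or lower, 1.60% of the air-only peaks met an air and 5.87% an ethylene reChIP peak; with overlap of at least 50% of the smaller peak the shares were 4.61% and 6.80%. The other 3 alternatives left both reChIP shares within their intervals. The share inside gene edges was 12.4% within 100 bp and 49.0% within 500 bp, by construction. Counts of genes with an air-only peak stayed within 1.5 times under the alternatives run, from 2192 (nearest gene only) to 2911. With windows of 500 bp, 6 of 27 lists or families changed by more than 1.5 times, all with at most 5 genes; immunity genes then gave 6 of 19 and WRKY genes 15 of 72. With q of 0.05 or lower they gave 7 and 19. With symbols matched only in capitals and without prefix, chosen after seeing the data, 19 of 20 family counts stayed within 1.5 times and bZIP factors gave 4 of 13. The planned motif shares were not run. No paired analysis was possible because each group had 1 library and the labels give no replicate numbers. Of the air-only peaks, 289 had q above 0.05, and absence of an ethylene peak at this depth is not absence of binding.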
